A study of Mus musculus with 36 samples.

Results

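The genes described here make, methylate or consume NAD, and were measured in mouse liver with and without the hepatocyte insulin receptor. They are Nampt, Nmnat1, Nmnat3, Nadsyn1, Qprt, Nadk, Nnmt, Sirt1, Parp1 and Cd38, and they were chosen by name: every array probe whose gene name in the scanner files was 1 of these 10 was taken, 20 probes of 56605 non-control probes. The 10 names were picked with earlier results of these data known. All 20 probes passed the filter on dim probes, and all 10 genes were among the 22887 genes tested. The liver RNA came from male mice, 11 weeks old, with free access to a standard chow, in a cycle with lights on at Zeitgeber time (ZT) 0 and off at ZT12. The knockouts, labelled IRLKO, carried insulin receptor alleles with LoxP sites around the fourth exon, and came from a cross to C57BL/6J mice with a tamoxifen-inducible Cre recombinase under the transthyretin promoter (TTR-CreTam), which is active in hepatocytes. The controls are labelled IRLWT. The labels record that the mice received no treatment. When tamoxifen was given, and whether controls carried the Cre, is not given in the sources used here. Each genotype was sampled at ZT8, ZT12 and ZT16 with 6 arrays in each of the 6 groups, 36 in all, each array from labelled RNA of whole liver.

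NAD carries electrons in fuel oxidation and is also cut up as a substrate. Liver makes it de novo from tryptophan, with Qprt turning quinolinate into a nicotinate nucleotide, and it recycles nicotinamide, with Nampt as the rate-limiting step. Nmnat enzymes form the dinucleotide, Nadsyn1 amidates the acid form to NAD, and Nadk phosphorylates NAD to NADP. Sirtuins such as Sirt1, poly(ADP-ribose) polymerases such as Parp1, and the glycohydrolase Cd38 split NAD and release nicotinamide, which Nnmt methylates for excretion. Transcription of Nampt is known to be driven by the circadian clock.

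Levels are given as log2 signal minus the array's 75th percentile, so that a difference of 1 is a 2-fold change, and levels of different genes, read by different probes, are not compared. Each gene is read by its brightest probe. The probes chosen to represent the 10 genes were well above background on all 36 arrays. Between 53.7% and 63.1% of the probes on an array were well above background, no spot was saturated, and the number of arrays limits the precision. Insr, the targeted gene, lay between -1.86 and -1.01 in the 18 control arrays and between -3.95 and -2.94 in the 18 knockout arrays, with no overlap. Whether its probe lies in the deleted exon was not determined here. The hepatocyte markers Alb, Ttr, Apoa1, Serpina1c, Cyp2e1 and Hnf4a were well above background on every array. One array, replicate 3 of the ZT8 knockouts, stood apart from its group: on the second principal component of all genes it lay at 3.29, and the other 5 between 29.2 and 45.9. Results at ZT8 that depend on it are given with and without it. The labels number the arrays of a group without saying more of the animals, so the p-values measure the spread between these arrays. All adjusted p-values are Benjamini-Hochberg adjusted over all genes tested, from limma fits, and a difference was called where the adjusted p was under 0.05.

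Each of the 10 genes was called different between genotypes at 1 or more times, some higher and some lower. The share of all genes called at 1 or more times was not counted, but it is at least the 42.3% called at ZT12. At ZT8, 7 of the 10 were called, when 35.5% of all genes were: 2 were higher in the knockouts (16.7% of all genes), Nampt and Nnmt, and 5 lower (18.7%), Nmnat1, Nmnat3, Nadsyn1, Parp1 and Qprt. At ZT12, 8 were called against 42.3% of all genes, with Nnmt, Sirt1 and Cd38 higher (19.6%) and Nmnat1, Nadsyn1, Nadk, Parp1 and Qprt lower (22.7%). At ZT16, 6 were called against 40.0% of all genes, with Nmnat3, Nnmt and Cd38 higher (20.0%) and Nampt, Nadsyn1 and Nadk lower (20.0%). Called with the same sign at all 3 times were 2 of the 10 and 19.5% of all genes. Nnmt was higher at all 3 times, as were 8.91% of all genes, and Nadsyn1 was lower at all 3 times, as were 10.6%. The median difference of the 10 genes was -0.10, -0.20 and -0.17 at ZT8, ZT12 and ZT16, beside 0.01, -0.02 and 0.00 over all genes. Their median absolute difference was 0.29, 0.33 and 0.31, beside 0.25, 0.29 and 0.28. The groups did not overlap for 2 of the 10 genes at ZT8 (15.5% of all genes), 5 at ZT12 (21.4%) and 3 at ZT16 (19.2%). Since the 10 genes were picked with earlier results known, setting their counts beside all genes is no independent test.

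**Figure D1:**
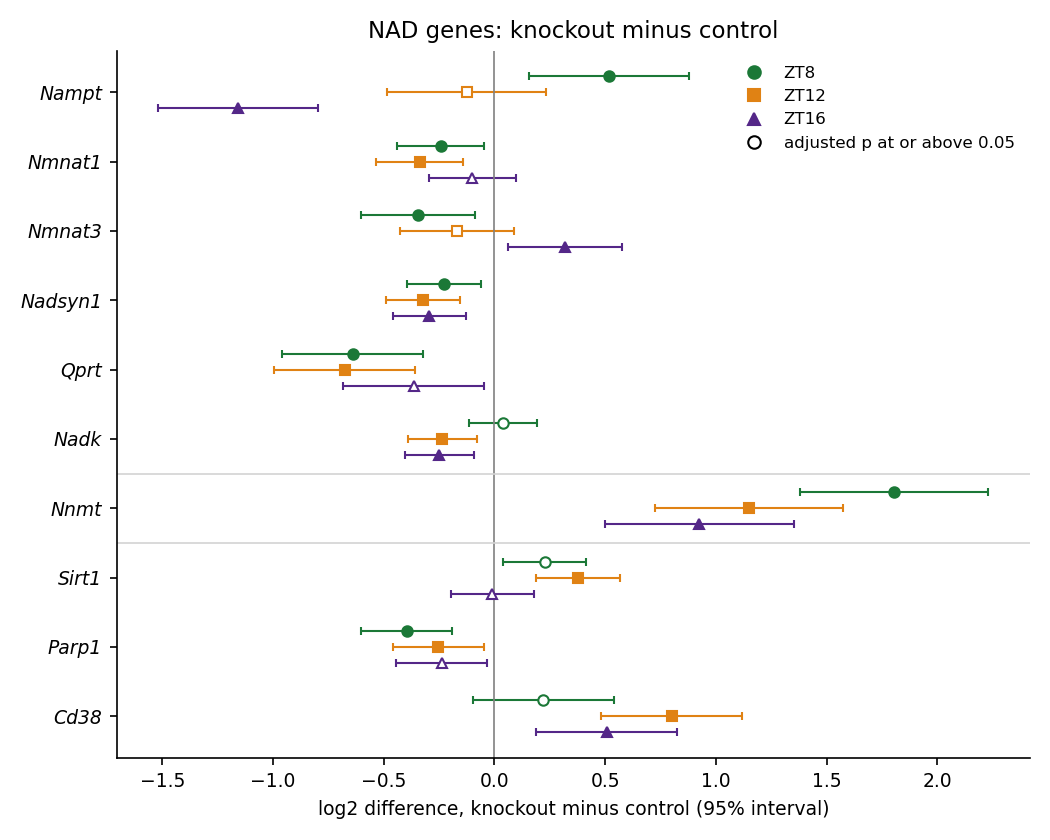
Difference in log2 level between knockouts and controls (x axis) for each of the 10 genes (y axis) at ZT8 (circles), ZT12 (squares) and ZT16 (triangles), with the 95% interval from the limma fit; filled symbols passed the adjusted threshold of 0.05 and open ones did not. Nnmt lies to the right of 0 at all times (1.80, 1.15 and 0.93), whereas Nampt moves from 0.52 at ZT8 to -1.16 at ZT16.

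Nampt, read by a probe at chr12:33535475-33535534 (mm9, plus strand), was higher in knockouts than in controls at ZT8 and lower at ZT16. At ZT8 its level ranged from 1.21 to 1.74 in controls (median 1.47) and from 1.51 to 2.20 in knockouts (median 1.96). At ZT12 the controls lay between 2.57 and 3.09 (median 3.02) and the knockouts between 2.50 and 3.02 (median 2.77). At ZT16 the controls lay between 2.03 and 3.12 (median 2.66) and the knockouts between 1.00 and 1.95 (median 1.48). Every knockout array was below every control array at ZT16, while the ranges overlapped at ZT8 and ZT12. The difference was 0.52 ± 0.18 (SE) at ZT8 (n = 6 per group; limma adjusted p = 0.0218), then -0.13 ± 0.18 at ZT12 (adjusted p = 0.596) and finally -1.16 ± 0.18 at ZT16 (adjusted p = 4.72e-06), where the knockout level was 0.448 times that of the controls. Without replicate 3 of the ZT8 knockouts the ZT8 difference was 0.46 (limma adjusted p = 0.052; range over all 12 alternatives 0.0125 to 0.052). Within the 3 wash batches the ZT16 difference was -0.47, -1.49 and -1.25. The first batch, with 1 control and 2 knockout arrays at ZT16, gave the smallest drop.

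The course of Nampt over the day also differed between genotypes. In controls it rose by 1.47 ± 0.18 from ZT8 to ZT12 (limma adjusted p = 6.1e-07) and was still 1.20 ± 0.18 above ZT8 at ZT16 (adjusted p = 4.3e-06); the step from ZT12 to ZT16 was -0.27 (adjusted p = 0.502). In knockouts it rose by 0.83 ± 0.18 from ZT8 to ZT12 (limma adjusted p = 0.00207) and fell by 1.30 ± 0.18 from ZT12 to ZT16 (adjusted p = 8.14e-06). The knockout level at ZT16 was below that at ZT8 by a difference of -0.48 ± 0.18 (limma adjusted p = 0.0418), a call lost in 6 of the 12 alternatives, which gave adjusted p up to 0.12. The genotype difference at ZT16 minus that at ZT8 was -1.68 ± 0.25 (limma adjusted p = 5.42e-05), and that at ZT16 minus that at ZT12 was -1.03 ± 0.25 (adjusted p = 0.0243). From lowest to highest mean, the groups ran ZT8 controls (1.43), ZT16 knockouts (1.47), ZT8 knockouts (1.93), ZT16 controls (2.62), ZT12 knockouts (2.79) and ZT12 controls (2.90), and the ranges of each group and its neighbour in that order overlapped.

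Nmnat3, a nucleotide adenylyltransferase found in mitochondria, was the other gene of the 10 whose genotype difference varied with time, and it moved the opposite way to Nampt. Its brightest probe lies at chr9:98311751-98311810 (mm9, plus strand). At ZT8 the controls lay between 1.49 and 1.91 (median 1.65) and the knockouts between 1.05 and 1.75 (median 1.34). At ZT12 the ranges were 0.57 to 1.11 (median 0.97) in controls and 0.27 to 1.00 (median 0.67) in knockouts. At ZT16 they were 0.17 to 0.63 (median 0.46) and 0.11 to 1.20 (median 0.79). The ranges overlapped at every time, and the ZT16 knockouts were spread the widest. The difference was -0.35 ± 0.13 at ZT8 (limma adjusted p = 0.0321), then -0.17 ± 0.13 at ZT12 (adjusted p = 0.293) and finally 0.32 ± 0.13 at ZT16 (adjusted p = 0.0444; lost in 4 of 12 alternatives, range 0.0327 to 0.121). Controls fell by 1.23 ± 0.13 from ZT8 to ZT16 (limma adjusted p = 1.04e-08), and knockouts fell by 0.56 ± 0.13 (adjusted p = 0.000868).

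The test of whether the genotype difference varied between the 3 times called 2 of the 10 genes, Nampt (limma F test, adjusted p = 0.000213) and Nmnat3 (adjusted p = 0.0345), when 8.47% of all genes were called. Taken pair by pair, the genotype difference changed from ZT8 to ZT12 for 0 of the 10 (1.25% of all genes; at an unadjusted limma p under 0.05 it did for Nampt, Nadk, Nnmt and Cd38), from ZT12 to ZT16 for 1, Nampt (1.97%), and from ZT8 to ZT16 for 2, Nampt and Nmnat3 (9.77%). The Nmnat3 call was lost in 3 of 11 alternatives: it had limma adjusted p = 0.121 without a term for wash batch, 0.067 with no filter on dim probes and 0.068 with slide as a block, in a range of 0.0251 to 0.121. Without replicate 3 of the ZT8 knockouts the Nmnat3 difference at ZT8 was -0.29 (limma adjusted p = 0.084; range 0.0257 to 0.123). Of the other Nmnat3 probes, 1 gave -0.91, -0.61 and 0.10 at the 3 times and was itself called by the F test (limma adjusted p = 0.0082 over all probes), 1 gave -0.12, -0.10 and 0.59, and 1, well above background on 8 of 36 arrays, gave -0.15, -0.54 and -0.46, none called.

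**Figure D2:**
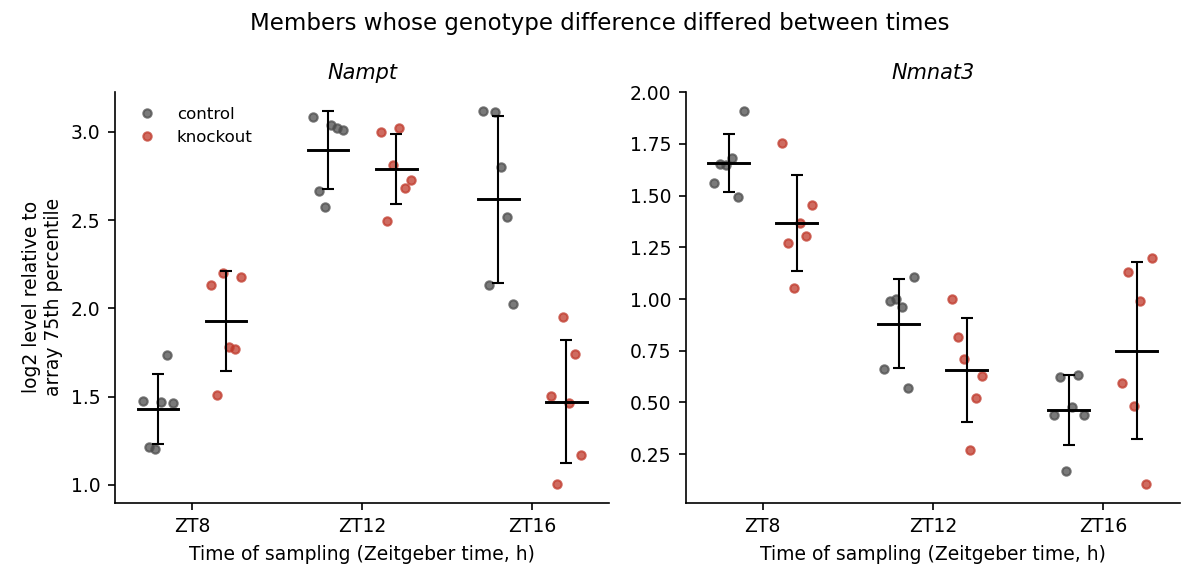
Level of Nampt (left) and Nmnat3 (right) on each array (y axis, log2 relative to the array's 75th percentile) by time of sampling (x axis) in controls (grey) and knockouts (red); each point is 1 array, black bars are the mean and SD of 6. For Nampt the ZT16 knockouts (1.00 to 1.95) lie below all ZT16 controls (2.03 to 3.12), and for Nmnat3 the control mean drops from 1.66 at ZT8 to 0.46 at ZT16.

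Genes of the clock were read beside Nampt. Per2, a repressor of the clock, differed by -0.11 at ZT8 (limma adjusted p = 0.64), then -0.90 at ZT12 (adjusted p = 2.5e-05) and finally -2.26 at ZT16 (adjusted p = 1.2e-12). In controls Per2 lay between 3.25 and 3.67 at ZT16, and in knockouts between 0.74 and 1.75. Dbp, a transcription factor under clock control, differed by -0.10, -0.72 and -1.32, of which the last 2 were called (limma adjusted p = 0.016 and 5.7e-05). Arntl, which encodes the activator BMAL1, differed by -1.41 at ZT8 (limma adjusted p = 0.0012), a value that shrank to -0.29 (adjusted p = 0.17; range up to 0.17) under another background correction (normexp; its probe was well above background on 2 of the 6 ZT8 knockout arrays), and by 0.49 and 0.48 at the later times, which were not called. Nr1d1, which represses Arntl, differed by -0.67 at ZT8 (limma adjusted p = 0.037), -0.43 and 0.61, the last 2 not called. The ZT8 call of Nr1d1 was lost in 4 of 11 alternatives (adjusted p up to 0.0737), and its ZT16 value was called higher in 3 (0.70 with slide as a block, limma adjusted p = 0.0341; range 0.0341 to 0.615). Of 17 clock genes tested, 0 were higher in knockouts at any time (at ZT8, ZT12 and ZT16, respectively, 8, 7 and 12 were lower), and 13 passed the F test, where 16.7% to 20.0% of all genes were called higher, 18.7% to 22.7% lower and 8.47% passed the F test. Whether these genes have a part in the course of Nampt was not tested.

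**Figure D3:**
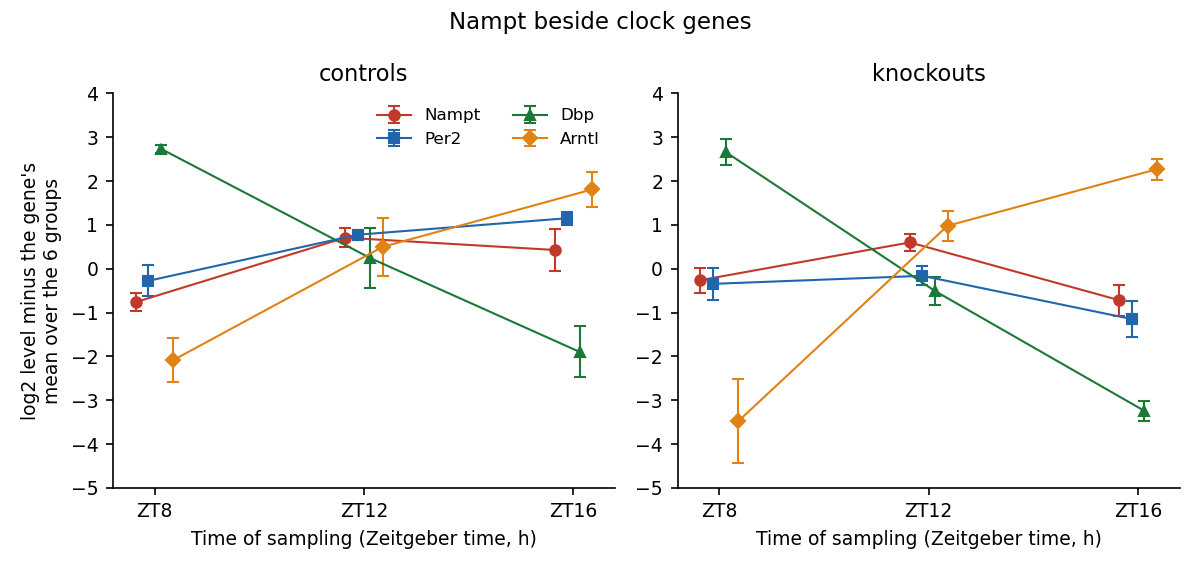
Mean level of Nampt, Per2, Dbp and Arntl in controls (left) and knockouts (right) by time of sampling (x axis), each as log2 level minus that gene's mean over the 6 groups (y axis); bars are the SD of 6 arrays. Nampt and Per2 are both lower at ZT16 in knockouts than in controls (differences of -1.16 and -2.26), and Dbp falls from ZT8 to ZT16 in both genotypes.

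By the root-mean-square distance between values centred on their mean over the 36 arrays, the 3 genes of 13839 most like Nampt were Dync2h1 (0.398), Slc16a12 (0.432) and Tspan4 (0.438), where Nampt's own root-mean-square deviation was 0.667. Dync2h1 encodes a dynein heavy chain and Slc16a12 a member of the monocarboxylate transporter family. Their genotype differences at ZT8, ZT12 and ZT16 were -0.20, 0.04 and -0.44 for Dync2h1, 0.22, -0.67 and -1.13 for Slc16a12, and 0.59, 0.21 and -0.30 for Tspan4.

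Nnmt, the methyltransferase that removes nicotinamide from the salvage pool, gave the widest range of group means among the 10, 2.44. Its brightest probe lies at chr9:48399997-48400056 (mm9, minus strand). At ZT8 the controls lay between 5.33 and 6.17 (median 5.87) and the knockouts between 7.34 and 8.09 (median 7.58). At ZT12 the ranges were 6.36 to 7.02 (median 6.73) and 7.39 to 8.53 (median 7.80), and at ZT16 6.82 to 7.60 (median 7.33) and 7.72 to 9.16 (median 8.13). Every knockout array was above every control array of its time. The difference was 1.80 ± 0.21 at ZT8 (3.49-fold; limma adjusted p = 5.31e-08), then 1.15 ± 0.21 at ZT12 (2.22-fold; adjusted p = 5e-05) and finally 0.93 ± 0.21 at ZT16 (1.9-fold; adjusted p = 0.000692). Nnmt was also higher within each of the 3 wash batches at each time, with differences from 0.42 to 2.06, some resting on 1 array of a genotype.

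In controls Nnmt rose by 0.93 ± 0.21 from ZT8 to ZT12 (limma adjusted p = 0.00203) and by 1.51 ± 0.21 from ZT8 to ZT16 (adjusted p = 1.56e-06). In knockouts it rose by 0.63 ± 0.21 from ZT8 to ZT16 (limma adjusted p = 0.0203). Although the genotype difference was smaller at ZT16 than at ZT8, by -0.88 ± 0.30, that change was not called (limma adjusted p = 0.0554; 0.0395 without replicate 3 of the ZT8 knockouts, range over alternatives 0.0395 to 0.0975). The order of mean levels was ZT8, ZT12 and ZT16 controls (5.79, 6.72 and 7.30), then ZT8, ZT12 and ZT16 knockouts (7.60, 7.86 and 8.23); of these neighbours only the ZT8 and ZT12 controls had ranges that did not overlap. The second Nnmt probe gave 1.72, 1.18 and 0.83, all called, and the third 1.01, 0.39 and 0.37, of which the ZT8 value was called (limma adjusted p = 0.00013 over all probes; 0.11 and 0.13 at the later times). Most like Nnmt across the 36 arrays were Slc16a10 (distance 0.407), Fam53b (0.415) and Smarcd3 (0.445), where Nnmt's own deviation was 0.866. Slc16a10, an aromatic amino acid transporter, differed by 1.27, 1.03 and 0.98 between genotypes, Fam53b by 1.51, 1.29 and 1.17, and Smarcd3, a chromatin remodelling subunit, by 1.24, 1.30 and 1.33.

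**Figure D4:**
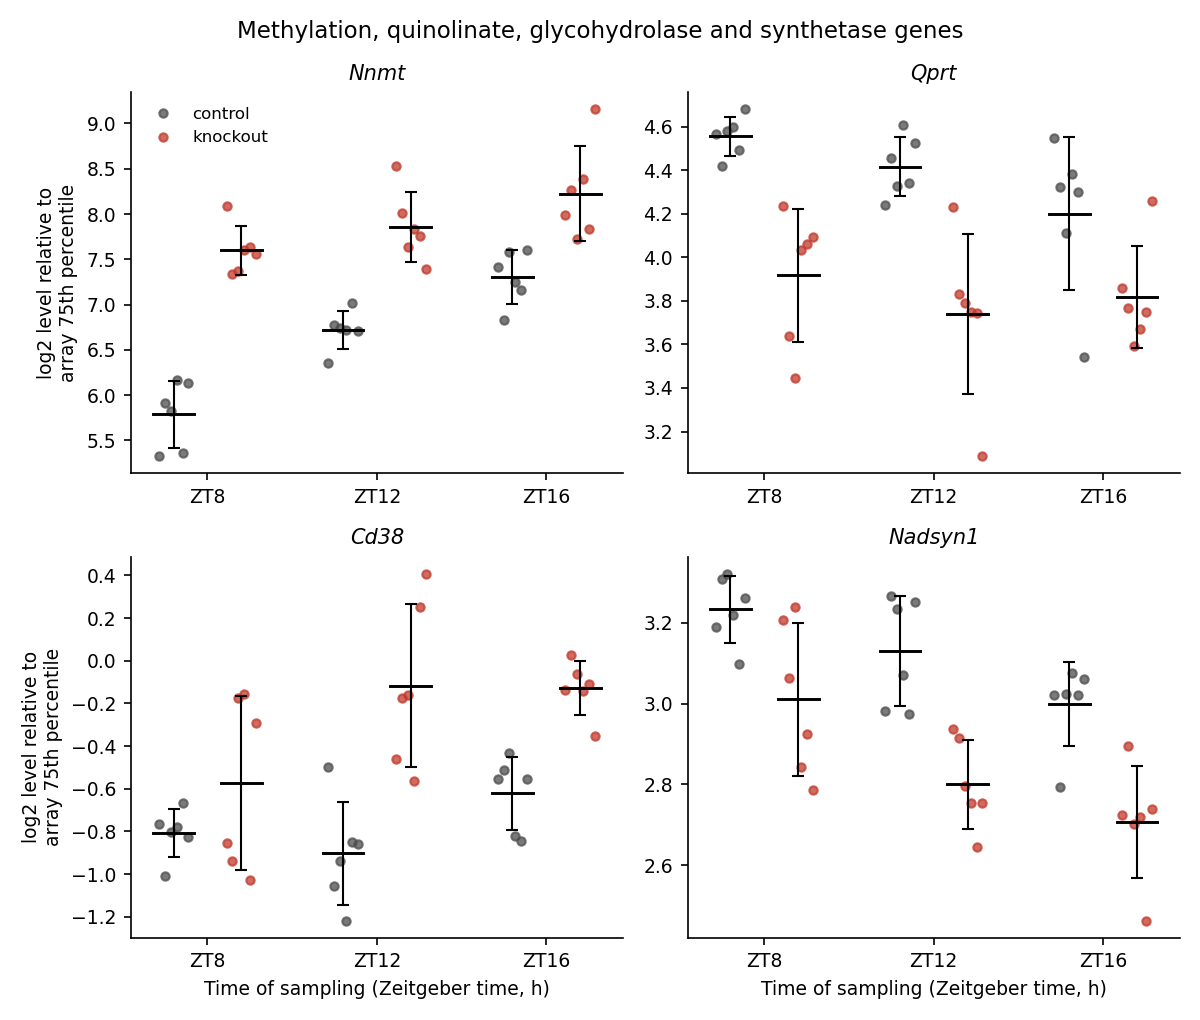
Level of Nnmt, Qprt, Cd38 and Nadsyn1 on each array (y axis, log2 relative to the array's 75th percentile; each panel has its own scale) by time of sampling (x axis) in controls (grey) and knockouts (red); black bars are the mean and SD of 6 arrays. Nnmt is higher in all knockouts at every time, Qprt is lower in all knockouts at ZT8 and ZT12, and the Cd38 knockouts are apart from the controls at ZT16 (-0.35 to 0.03 against -0.85 to -0.43).

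Qprt, which commits quinolinate from the tryptophan route to NAD, was lower in knockouts at ZT8 and ZT12 by its brightest probe and not by its second. The brightest probe lies at chr7:134251475-134251534 (mm9, minus strand). At ZT8 the controls lay between 4.42 and 4.68 (median 4.58) and the knockouts between 3.45 and 4.24 (median 4.05), and at ZT12 the ranges were 4.24 to 4.61 (median 4.40) and 3.09 to 4.23 (median 3.77). The knockouts lay below all controls at both times. At ZT16 the ranges, 3.54 to 4.55 (median 4.31) in controls and 3.59 to 4.26 (median 3.76) in knockouts, overlapped. The difference was -0.64 ± 0.16 at ZT8 (limma adjusted p = 0.0017), then -0.68 ± 0.16 at ZT12 (adjusted p = 0.000826) and finally -0.36 ± 0.16 at ZT16 (adjusted p = 0.0622; range over alternatives 0.0458 to 0.238). Within wash batches the ZT16 difference was 0.38, -0.53 and -0.61, the first from 1 control and 2 knockout arrays. The second Qprt probe, also well above background on all 36 arrays, gave 0.22, -0.29 and 0.08, none called.

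Nadsyn1, the synthetase that closes the de novo and nicotinic acid routes, was lower at all 3 times by a small amount, with a ZT8 call that was lost in 4 of 12 alternatives. Its brightest probe lies at chr7:150981766-150981825 (mm9, minus strand). The ranges in controls and knockouts were 3.10 to 3.32 (median 3.24) and 2.79 to 3.24 (median 2.99) at ZT8, 2.98 to 3.27 (median 3.15) and 2.64 to 2.94 (median 2.78) at ZT12, and 2.79 to 3.08 (median 3.02) and 2.46 to 2.90 (median 2.72) at ZT16. They were apart at ZT12 only. The differences were -0.23 ± 0.08 (limma adjusted p = 0.028), -0.32 ± 0.08 (adjusted p = 0.00194) and -0.29 ± 0.08 (adjusted p = 0.00458), and the second probe gave -0.23, -0.28 and -0.26, all called. In the authors' deposited table, whose 36 columns hold identical sorted values, the differences were -0.16, -0.16 and -0.13 and none was called (limma adjusted p = 0.166, 0.149 and 0.229, the highest of the alternatives).

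Nmnat1, the nuclear adenylyltransferase, has its brightest probe at chr4:148842735-148842794 (mm9, minus strand). At ZT12 the controls lay between 1.23 and 1.49 (median 1.36) and the knockouts, all lower, between 0.87 and 1.15 (median 0.97). At ZT8 the ranges, 1.12 to 1.38 (median 1.25) and 0.76 to 1.30 (median 1.06), overlapped, as they did at ZT16, 0.95 to 1.35 (median 1.18) and 0.82 to 1.50 (median 1.04). The difference was -0.34 ± 0.10 at ZT12 (limma adjusted p = 0.00525) and finally -0.10 ± 0.10 at ZT16 (adjusted p = 0.435). At ZT8 it was -0.24 ± 0.10 (limma adjusted p = 0.0488), a call lost in 8 of 12 alternatives (range 0.0388 to 0.146, the highest without replicate 3 of the ZT8 knockouts, at -0.18). The second Nmnat1 probe gave -0.14, -0.33 and -0.04, with the ZT12 value called.

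Before the values of Nadk, Sirt1 and Parp1, the stretch upstream of their start sites is shown, because these were the members whose promoter windows held an E-box, CACGTG, the sequence that the clock activator BMAL1 and its partner are known to bind. RefSeq promoter windows (GRCm38.p6), from 250 bases before to 50 after a gene's start, were matched for 9 of the 10 genes, in 11 windows; Nnmt had no entry. CACGTG, which reads the same on both strands, was in 3 of the 11 windows, 1 each of Nadk, Sirt1 and Parp1, and in 7.15% of all 32851 windows. G and C made up 67%, 79% and 62% of these windows of Nadk, Sirt1 and Parp1, beside a median of 52.7% over all windows. The share with CACGTG among windows of like base composition was not counted. The D-box (TTATGTAA or TTATGCAA, 1.66% of all windows), GTAAACA (3.65%) and the cyclic AMP element TGACGTCA (1.79%), searched on both strands, were in 0 of the 11. The 250 bases upstream of each start run 5' to 3' on the gene's strand with the E-box in capitals; in Nadk it begins 40 bases before the start, in Parp1 49 and in Sirt1 115 and 43. They lie at chr4:155563565-155563814 (plus strand) for Nadk, chr10:63339036-63339285 (minus strand) for Sirt1 and chr1:180568641-180568890 (plus strand) for Parp1. A match describes the letters of the window and does not show a bound site. The Nampt window, with 76.3% G and C, held none of the motifs searched, and bases outside the windows were not searched.
Nadk: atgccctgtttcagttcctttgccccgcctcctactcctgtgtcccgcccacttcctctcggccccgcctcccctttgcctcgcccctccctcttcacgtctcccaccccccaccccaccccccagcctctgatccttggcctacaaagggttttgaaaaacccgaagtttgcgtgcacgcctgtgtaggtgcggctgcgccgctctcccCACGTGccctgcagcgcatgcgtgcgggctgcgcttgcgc
Sirt1: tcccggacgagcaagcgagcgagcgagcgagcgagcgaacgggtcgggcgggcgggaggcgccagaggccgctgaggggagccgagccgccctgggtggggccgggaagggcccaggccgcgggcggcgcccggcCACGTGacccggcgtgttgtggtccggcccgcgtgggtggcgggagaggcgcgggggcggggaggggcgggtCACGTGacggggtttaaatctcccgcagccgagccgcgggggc
Parp1: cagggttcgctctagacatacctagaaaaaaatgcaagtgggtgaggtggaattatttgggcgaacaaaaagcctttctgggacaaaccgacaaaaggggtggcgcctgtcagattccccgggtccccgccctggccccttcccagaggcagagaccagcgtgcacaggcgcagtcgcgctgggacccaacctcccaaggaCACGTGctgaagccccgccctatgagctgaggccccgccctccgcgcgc

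Nadk, the cytosolic kinase that makes NADP, was lower in knockouts at ZT12 and ZT16 by its brightest probe. Its brightest probe lies at chr4:154964896-154964955 (mm9, plus strand). At ZT8 controls lay between 5.09 and 5.36 (median 5.23) and knockouts between 4.91 and 5.40 (median 5.32). At ZT12 the ranges were 5.48 to 5.82 (median 5.53) and 5.19 to 5.46 (median 5.38), and at ZT16 5.48 to 5.77 (median 5.67) and 5.30 to 5.50 (median 5.38). The knockouts were below all controls at ZT12 and overlapped them slightly at ZT16. The difference was 0.04 ± 0.08 at ZT8 (limma adjusted p = 0.739), then -0.23 ± 0.08 at ZT12 (adjusted p = 0.0129) and finally -0.25 ± 0.08 at ZT16 (adjusted p = 0.00923). In controls Nadk rose by 0.42 ± 0.08 from ZT8 to ZT16 (limma adjusted p = 7.03e-05); in knockouts the change was 0.14 ± 0.08 (adjusted p = 0.192). The difference between those changes was -0.29 ± 0.11 and was not called (limma adjusted p = 0.0909), except without replicate 3 of the ZT8 knockouts (-0.37, adjusted p = 0.00793; range over alternatives 0.00793 to 0.175). The second Nadk probe gave 0.06, -0.09 and -0.05, none called, so the probes disagree at ZT12 and ZT16. In the authors' deposited table the ZT12 difference of the brightest probe was -0.14 (limma adjusted p = 0.0651; range over alternatives 0.00272 to 0.0651).

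Sirt1, the nuclear NAD-dependent deacetylase, has its brightest probe at chr10:62781827-62781886 (mm9, minus strand). At ZT8 its level lay between 0.75 and 1.01 in controls (median 0.90) and between 0.69 and 1.47 in knockouts (median 1.13). At ZT12 the ranges were 0.56 to 1.01 (median 0.71) and 0.75 to 1.44 (median 1.16), and at ZT16 0.58 to 0.91 (median 0.63) and 0.40 to 0.80 (median 0.66). The ranges overlapped at every time, with most knockouts higher at ZT12. The difference was 0.23 ± 0.09 at ZT8 (limma adjusted p = 0.0546; range over alternatives 0.0126 to 0.171), then 0.38 ± 0.09 at ZT12 (adjusted p = 0.00142) and finally -0.01 ± 0.09 at ZT16 (adjusted p = 0.947). The ZT8 difference was called higher in 6 of 12 alternatives. In knockouts Sirt1 fell by 0.47 ± 0.09 from ZT12 to ZT16 (limma adjusted p = 0.000652), whereas the step in controls was -0.09 (adjusted p = 0.75). The difference between these steps was not called (limma adjusted p = 0.126), except in 1 of 12 alternatives (range 0.0413 to 0.238). Nor did Sirt1 pass the F test (limma adjusted p = 0.131), except in 1 of 11 alternatives (range 0.0372 to 0.244). The second Sirt1 probe gave 0.19, 0.50 and -0.15, with the ZT12 value called.

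Parp1, which spends NAD to build poly(ADP-ribose) at DNA breaks, has a single probe, which spans chr1:182530341-182530639 (mm9, plus strand). At ZT8 the controls lay between -0.56 and -0.21 (median -0.35) and the knockouts between -1.03 and -0.49 (median -0.78). At ZT12 the ranges were -0.37 to 0.05 (median -0.13) and -0.53 to -0.27 (median -0.38), and at ZT16 -0.32 to 0.22 (median -0.06) and -0.41 to -0.12 (median -0.31). The ranges overlapped at each time. The difference was -0.40 ± 0.10 at ZT8 (limma adjusted p = 0.00253), then -0.25 ± 0.10 at ZT12 (adjusted p = 0.0422; lost in 5 of 12 alternatives, range 0.0303 to 0.0813) and finally -0.24 ± 0.10 at ZT16 (adjusted p = 0.0602). From ZT8 to ZT16 Parp1 rose in both genotypes, by 0.31 ± 0.10 in controls (limma adjusted p = 0.019) and 0.47 ± 0.10 in knockouts (adjusted p = 0.000493). The call in controls was lost in 3 of 12 alternatives (limma adjusted p up to 0.0696).

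Cd38, the main NAD glycohydrolase of the cell surface, was higher in knockouts at ZT12 and ZT16. Its only probe lies at chr5:44302865-44302924 (mm9, plus strand). At ZT8 the controls lay between -1.01 and -0.67 (median -0.79) and the knockouts between -1.03 and -0.16 (median -0.57). At ZT12 the ranges were -1.22 to -0.50 (median -0.90) and -0.56 to 0.41 (median -0.17), and at ZT16 -0.85 to -0.43 (median -0.56) and -0.35 to 0.03 (median -0.12). The knockouts lay above all controls at ZT16 and overlapped them at ZT8 and ZT12. The difference was 0.22 ± 0.16 at ZT8 (limma adjusted p = 0.286), then 0.80 ± 0.16 at ZT12 (1.74-fold; adjusted p = 0.000126) and finally 0.51 ± 0.16 at ZT16 (1.42-fold; adjusted p = 0.0102).

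Cd38 is known from immune cells, and some markers of several cell types other than hepatocytes were called higher in knockouts. At ZT8, ZT12 and ZT16, 16.7%, 19.6% and 20.0% of all genes were called higher and 18.7%, 22.7% and 20.0% lower. Some of the marker counts below lie near these shares. Of 7 macrophage markers, 2, 5 and 2 were higher in knockouts at ZT8, ZT12 and ZT16 and 0 lower, with median differences of 0.62, 0.72 and 0.63. Their summed signal, in multiples of the 75th percentile signal, ranged in controls from 46.4 to 113, 37.8 to 120.0 and 45.1 to 160.0 at the 3 times, and in knockouts from 67.1 to 284, 86.1 to 244 and 96.7 to 323. Of 3 B cell markers tested of 4 listed (Cd79a was not), 2, 3 and 3 were higher (medians 0.82, 1.00 and 1.47), with sums of 0.957 to 1.23, 0.516 to 1.38 and 0.397 to 0.654 in controls and 1.37 to 3.48, 0.939 to 2.57 and 0.905 to 2.67 in knockouts. Of 5 T and NK cell markers tested of 6 (Cd8a was not), 4 were higher at each time and 1 lower at ZT12 (medians 0.74, 0.90 and 0.70), with sums of 2.47 to 3.08, 2.19 to 3.60 and 2.31 to 3.08 in controls and 2.50 to 4.96, 2.36 to 3.62 and 2.50 to 3.45 in knockouts. Of 5 endothelial markers, 0, 4 and 3 were higher and 0 lower, with median differences of -0.03, 0.46 and 0.37 and sums of 26.0 to 32.7, 23.4 to 29.4 and 24.8 to 37.1 in controls and 24.7 to 34.7, 29.5 to 42.3 and 32.2 to 41.0 in knockouts. Of 5 neutrophil markers, 1, 0 and 2 were higher and 1 lower, at ZT16, with median differences of 0.54, 0.33 and 0.89. Of 7 stellate cell and fibroblast markers, 0, 2 and 2 were higher and 0 lower, with median differences of -0.21, 0.18 and 0.37. Their sums were 45.5 to 65.6, 37.7 to 67.0 and 49.4 to 86.2 in controls. In knockouts they were 39.9 to 109, 68.4 to 79.9 and 67.8 to 97.0. Of 3 red cell markers, 0, 2 and 1 were higher and 1 lower at each time. Of 4 bile duct markers, 0, 0 and 1 were higher, and of 3 fat markers 0, 1 and 1, with 0 lower. The 1 pancreas marker tested of 4, Cela1, was lower at each time. All 7 macrophage, all 5 endothelial and 6 of 7 stellate cell and fibroblast markers were well above background on every array. So were 2 of 3 B cell, 4 of 5 T and NK cell and 3 of 5 neutrophil markers. The same held for 1 of 4 bile duct, 3 of 3 red cell and 1 of 3 fat markers. The 6 hepatocyte markers summed to 3751 to 4582, 4296 to 4557 and 4170.4 to 4941 in controls and to 2544 to 4064, 3030.3 to 3769.8 and 3394 to 3719 in knockouts, with 2, 3 and 3 called lower and 1, at ZT12, called higher. In RNA of whole liver a change in the number of cells of a type cannot be told apart from a change in RNA per cell. The part of these cells in the Cd38 result was not tested.

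Within a genotype, time moved members of both ends of the pathway. From ZT8 to ZT12, 4 of the 10 genes were called in controls (14.8% of all genes) and 4 in knockouts (13.3%). From ZT12 to ZT16, 1 was called in controls, Nmnat3 (3.63%), and 2 in knockouts, Nampt and Sirt1 (12.6%). From ZT8 to ZT16, 6 were called in controls (26.6%) and 7 in knockouts (28.9%). Over that span the rises in controls were those of Nampt, Nadk, Nnmt and Parp1 (13.4% of all genes rose), and the falls those of Nmnat3 and Nadsyn1 (13.2% fell). The Nadsyn1 and Parp1 calls in controls were lost in 5 and 3 of 12 alternatives (limma adjusted p up to 0.0955 and 0.0696). The second Nadsyn1 probe was not called there (limma adjusted p = 0.0509 over all probes). In knockouts Nnmt, Parp1 and Cd38 rose (15.4%) and Nampt, Nmnat3, Nadsyn1 and Sirt1 fell (13.4%). The knockout calls of Nampt, Nadsyn1, Cd38 and Nnmt were lost in 6, 3, 2 and 1 of 12 alternatives. By their brightest probes, Nmnat1 and Qprt were called in none of the time comparisons. The second Qprt probe rose from ZT8 to ZT12 in controls, from ZT12 to ZT16 in knockouts, and from ZT8 to ZT16 in both genotypes (0.85, 0.59, and 1.08 and 0.93).

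The rest of the pathway was read from 47 further genes, all of which were tested. At ZT8 6 of them were higher and 15 lower, at ZT12 11 and 18, and at ZT16 10 and 16, with medians of -0.10, -0.07 and -0.08; 10 passed the F test. Over all genes 16.7%, 19.6% and 20.0% were called higher, 18.7%, 22.7% and 20.0% lower, and 8.47% passed the F test. The 7 genes of de novo synthesis from tryptophan had a median absolute difference of 0.95, 0.81 and 1.07 at the 3 times, beside 0.23, 0.37 and 0.36 over all 47. The lists too were chosen with earlier results of these data known, so this comparison is no independent test. Acmsd, which diverts the tryptophan route away from quinolinate, was higher by 2.96 ± 0.24, 2.49 ± 0.24 and 2.46 ± 0.24 (limma adjusted p = 9.3e-11, 2.1e-09 and 2.4e-09). It lay between -1.43 and -0.66 in ZT8 controls and between 1.43 and 2.91 in ZT8 knockouts, and the groups were apart at each time. Of the enzymes upstream of that branch, Tdo2, Ido2, Haao and Kmo were called lower at all times. Tdo2, the first and rate-limiting step in liver, differed by -0.99, -0.81 and -0.84. Ido2, which opens the same ring, differed by -1.19, -1.49 and -1.24. Haao, which forms the precursor of quinolinate, differed by -0.95, -1.05 and -1.07. For Tdo2, Ido2 and Haao the groups did not overlap. Kmo, named after its values were seen, differed less. Over the alternatives its difference ran from -0.37 to -0.19 at ZT8, -0.51 to -0.32 at ZT12 and -0.33 to -0.15 at ZT16. Its ZT8 and ZT16 calls were each lost in 3 of 12 alternatives. Afmid, the second step, differed by -0.13 at ZT8 (limma adjusted p = 0.49), then -0.36 at ZT12 (adjusted p = 0.034) and finally -1.19 at ZT16 (adjusted p = 3e-08), and passed the F test (adjusted p = 0.00093). Upstream enzymes did not all fall: Kynu, the kynureninase, named after its values were seen, differed by 0.10 and 0.13 at ZT8 and ZT12, not called, and was higher by 0.59 at ZT16 (limma adjusted p = 0.00044). In that list 1 gene was higher and 4 lower at ZT8, 1 and 5 at ZT12, and 2 and 5 at ZT16.

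Of the 7 genes of nicotinic acid and riboside salvage, 2 were higher and 1 lower at ZT8, 2 and 3 at ZT12, and 1 and 3 at ZT16. Pnp, the nucleoside phosphorylase that can cleave nicotinamide riboside, was higher by 0.24, 1.04 and 0.64 and passed the F test (limma adjusted p = 0.00085). Nmrk1, the nicotinamide riboside kinase, differed by -0.02 at ZT8 and by -1.33 and -0.98 at the later times (limma adjusted p = 1.2e-05 and 0.00063), with the groups apart at both, and also passed the F test (adjusted p = 0.014). The mitochondrial NAD kinase Nadk2 was lower by differences of -0.20, -0.36 and -0.24. Among 6 genes of transport and upkeep, 1 was higher and 4 lower at ZT8, 1 and 3 at ZT12 and 0 and 3 at ZT16, and 0 passed the F test. Naxe and Naxd, which repair damaged NADH, differed by -0.37, -0.37 and -0.52 and by -0.26, -0.28 and -0.22, and Nudt12, an NADH hydrolase, by -0.37, -0.48 and -0.30, called at each time. The Naxd call was lost at ZT12 in the authors' deposited table (-0.11, limma adjusted p = 0.109, the highest over the alternatives) and at ZT16 there and with quantile normalization (-0.12 and -0.11), that of Nudt12 at ZT8 in 1 alternative and that of Nadk2 at ZT16 in 2. The calls of Pnp and Nadk2 at ZT8 were each lost in 4 of the alternatives, and those of Afmid at ZT12 and Parp8 at ZT8 in 5.

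Of 6 sirtuins beside Sirt1, which was higher at ZT12, 0 were higher at any time and 2, 4 and 2 were lower, where 18.7%, 22.7% and 20.0% of all genes were lower. Sirt7, a nucleolar deacylase, was lower by differences of -0.75, -0.37 and -0.42 and passed the F test (limma adjusted p = 0.013), and Sirt5, the mitochondrial desuccinylase, by -0.50, -0.80 and -0.47. Of 14 further genes of the PARP and tankyrase family, 1 was higher and 2 lower at ZT8, 5 and 1 at ZT12, and 5 and 1 at ZT16. Parp4, the vault PARP, differed by -0.18 at ZT8 (limma adjusted p = 0.063), then 0.49 at ZT12 (adjusted p = 3.6e-06) and finally 0.85 at ZT16 (adjusted p = 1.6e-10), and passed the F test (adjusted p = 1.4e-06). Parp16 was higher at ZT16 by 0.96 (limma adjusted p = 7.3e-05; F test adjusted p = 0.004) and Parp8 at all times by 0.41, 0.55 and 0.52. Of the 2 other glycohydrolases 1 was higher at ZT12 and at ZT16. It was Sarm1, the NAD-cleaving enzyme known from axons, which differed by -0.02, 0.61 and 1.34 (limma F test adjusted p = 0.00052); with normexp background correction its ZT12 value was 0.04 (adjusted p = 0.65, the highest over the alternatives) and its ZT16 value 0.39.

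Next to Nnmt stand the genes that oxidise nicotinamide products or supply the methyl group. Aox1, an aldehyde oxidase that acts on methylated nicotinamide, was lower by differences of -1.15, -1.79 and -0.81, with the groups apart at each time, and passed the F test (limma adjusted p = 0.00028). Mat1a, which makes S-adenosylmethionine in liver, was higher by 0.50, 0.45 and 0.46, the last 2 calls being lost with quantile normalization and the first with only the groups compared in the fit. Ahcy, which removes the product of methylation, differed by 0.23 and 0.18, not called, and by -0.44 at ZT16 (limma adjusted p = 0.016; F test adjusted p = 0.049). Of the 5 genes in this list 1 was higher and 2 lower at each time.

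**Figure D5:**
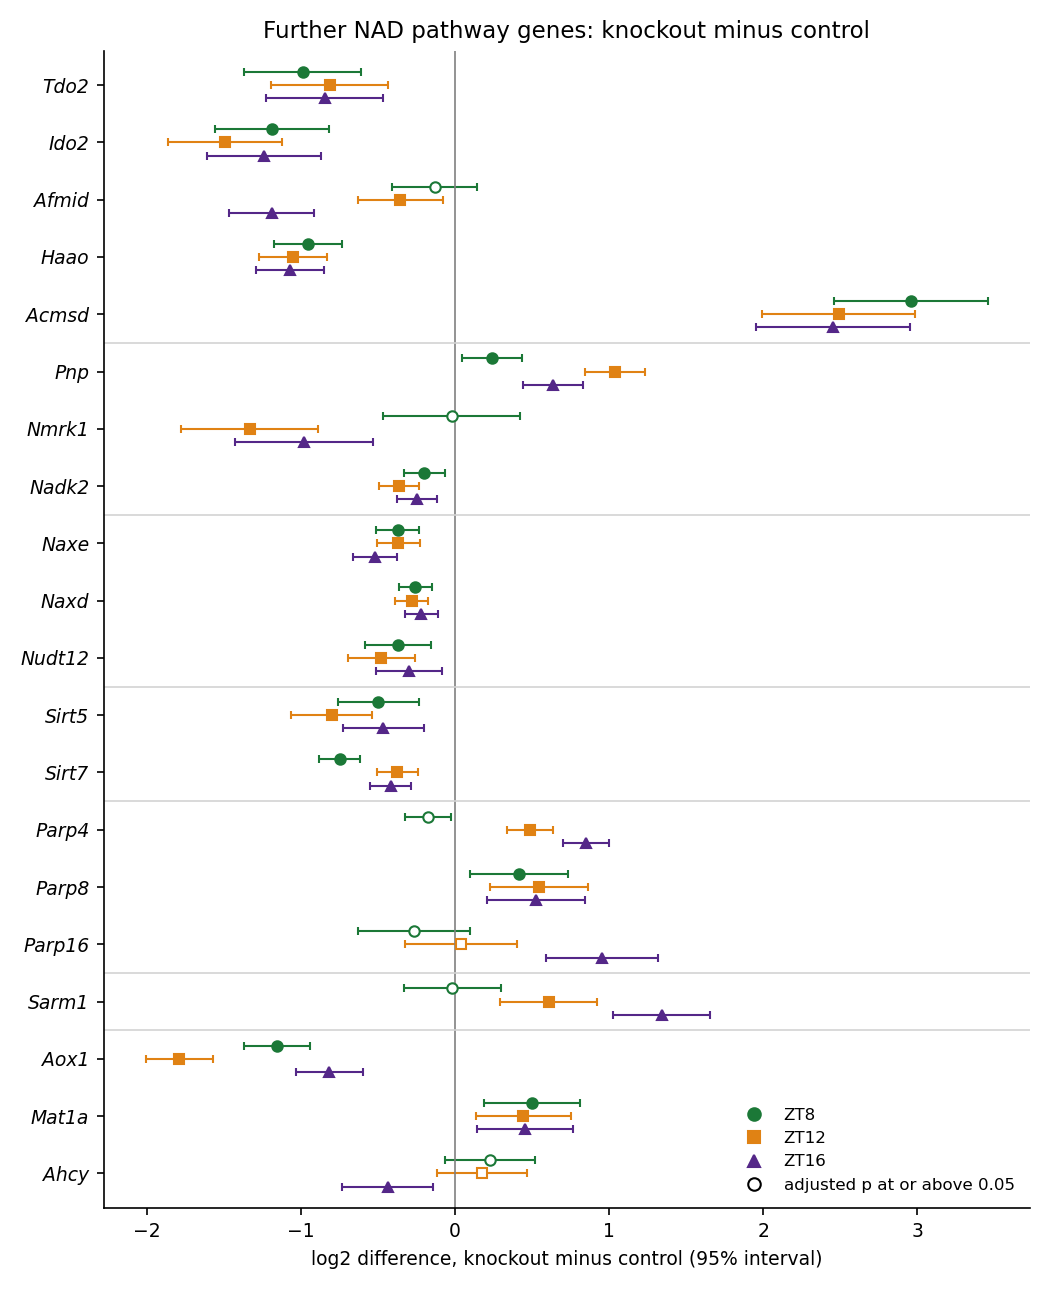
Difference in log2 level between knockouts and controls (x axis) for the further pathway genes named in the text (y axis), except Kynu and Kmo, which are not drawn. Circles are ZT8, squares ZT12 and triangles ZT16, with 95% intervals from the limma fit. Filled symbols passed the adjusted threshold of 0.05. Grey lines part the lists, from de novo synthesis at the top to methyl supply at the bottom. Acmsd lies farthest to the right (2.96 at ZT8) and Aox1 farthest to the left (-1.79 at ZT12).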

How the data were processed

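Labelled liver RNA (200 ng per sample) was hybridised to 36 Agilent arrays of 1 colour, and the spots were read with Feature Extraction 10.10.1.1, per the file headers. Per the file headers, the deposited scanner files give the processed signal as an intensity for each spot, after background subtraction. The authors also deposited a table of log2 values for 32801 probes, whose 36 columns hold identical sorted values; the submitters' processing notes name limma. Here, log2 intensity minus the array's 75th percentile was used, outlier spots were left out, probes well above background on at least 6 arrays were kept (34774), and the brightest probe stood for a gene (22887 genes). Fits used limma 3.58.1 in R 4.3.3 with 6 group means and 3 wash batches, leaving 28 residual degrees of freedom, and Benjamini-Hochberg adjustment at 0.05. The fit was tested on simulated data. The 10 genes and all gene lists were chosen with earlier results of these data known. From every further pathway list, the text names at most 4 genes called with the same sign at all 3 times, by mean absolute log2 ratio, and at most 2 past the F test with the smallest p. Outside that rule it names Kynu and Kmo. Of the clock genes it names Arntl, Nr1d1, Per2 and Dbp, and for Nampt and Nnmt the 3 genes nearest in pattern. Promoter windows came from RefSeq (GRCm38.p6), and probe positions (mm9) from the scanner files. Same-numbered arrays did not deviate together (15 of 90 pairs correlated above 0.1), so no pairing was used. There were 12 alternatives.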

Additional observations from a re-analysis of the deposited data

Results flagged for a closer look

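Among 60 groups of 6 arrays (10 genes in 6 groups), 4 held an array far from the other 5, where chance gives about 1 in 20, or 3. Nmnat1 in replicate 6 of the ZT16 knockouts was 1.4985, with the nearest of the others at 1.0736. Nadsyn1 in replicate 2 of the ZT16 controls was 2.7926, with the nearest at 3.0205. Nadk in replicate 2 of the ZT12 controls was 5.8205, with the nearest at 5.5622. Nadk in replicate 3 of the ZT8 knockouts was 4.9067, with the nearest at 5.2425; this array also stood apart over all genes.

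The genotype difference varied between the times for Nampt (limma F test, adjusted p = 0.000213) and for Nmnat3 (adjusted p = 0.0345), with 6 arrays in each group.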

How the results depend on the processing

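Of 30 genotype differences of the 10 genes, 21 were called, of which 12 held in every alternative and 9 were lost in some, and 3 of the 9 not called were gained in some. Over all genes, 35.5%, 42.3% and 40.0% were called at ZT8, ZT12 and ZT16 in the main fit. None reversed; sign changes of values called in neither setting were not counted. With only the groups compared in the fit, the number of the 10 genes called fell from 4 to 2 for ZT12 minus ZT8 in knockouts and from 7 to 3 for ZT16 minus ZT8 in knockouts, and from 1 to 0 for the change in genotype difference from ZT12 to ZT16, which was 2 in the authors' deposited table. The 1 call for ZT16 minus ZT12 in controls went to 0 with quantile normalization, the authors' deposited table, no dim filter, no wash batch term, slide as a block, or only the groups compared. The ZT12 genotype count was 5 in place of 8 in the authors' deposited table, and the ZT8 count 4 in place of 7 with no dim filter. The F test called 1 in place of 2 with no dim filter, no wash batch term or slide as a block. Without IRLKO_ZT8 replicate 3 the genotype difference changed from ZT8 to ZT12 for 1 gene in place of 0, and from ZT8 to ZT16 for 4 in place of 2. With the replicate number as a block the genotype counts were 8, 7 and 6, the time counts 4, 1 and 6 in controls and 4, 2 and 7 in knockouts, the counts of changed genotype differences 0, 1 and 2, and the F test count 2; 9 of 36 arrays were closest to their own number.

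Over all genes, with only the groups compared, the calls went from 831 to 327 (ZT16 minus ZT12, controls), and in knockouts from 3033 to 615, 2880 to 1677 and 6608 to 4323. The F test called 1939 genes, 1279 with no dim filter and 2989 without IRLKO_ZT8 replicate 3; the change from ZT8 to ZT12 called 287, 133 and 942, and that from ZT12 to ZT16 450 and, with no dim filter, 256.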

Other observations

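Qprt is read by 2 probes that ran differently over the day. The dimmer probe rose from ZT8 to ZT16 by 1.08 in controls (limma adjusted p = 2e-06 over all probes) and by 0.93 in knockouts (adjusted p = 1.6e-05), whereas the brighter changed by -0.38 in controls (adjusted p = 0.0751) and -0.10 in knockouts. The dimmer probe lay between -2.60 and -2.07 in ZT8 controls and between -1.68 and -1.02 in ZT16 controls. Between genotypes it differed by 0.22, -0.29 and 0.08, none called, against -0.64, -0.68 and -0.36 for the brighter probe.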
